A study of Mus musculus with 2 samples.

Results

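The p53 target genes considered here are a list of 32 mouse genes that are regarded as targets or close partners of the tumour suppressor p53. They are 32 of 20807 autosomal protein-coding genes, and they were picked by name, with earlier results of these data known. Open regions were assigned to a member when an interval lay within 1 kb of one of its start sites (promoter), or when its nearest protein-coding start site, more than 1 kb and at most 100 kb away, was that of a member (distal). By this rule the members held 265 of 127423 intervals in the vehicle library and 372 of 179414 intervals in the TAMo library. Joined where they overlapped, these made 387 of 190617 regions.

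p53, encoded by Trp53, is a transcription factor that is kept low by the ubiquitin ligase Mdm2 and by Mdm4, and is stabilised by kinases that sense DNA damage and replication stress. As a tetramer it binds a response element made of a pair of like motifs side by side and switches on genes that halt the cell cycle, repair DNA, adjust metabolism or start apoptosis. Mdm2 is itself a target, which closes a feedback loop, and in T cells p53 is known to restrain the expansion that follows antigen stimulation.

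The assay was ATAC-seq, which maps open chromatin by the insertion of adapters with a transposase. The cells were CD8+ T cells from OT-I mice, whose transgenic receptor recognises the ovalbumin peptide OVA257-264, and the labels give their genotype as WT. All cultures received that peptide for 48 h, and were given either vehicle or TAMos, which the series describes as CD11b+ Ly6G- Ly6C-high cells from the spleens of mice with LLC (Lewis lung carcinoma) tumours. About 50000 sorted T cells went into 1 library per group, so no difference below has a replicate check, and intervals cover counting error only. In such bulk libraries, fewer cells with an open site and a less open site in each cell cannot be told apart.

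Values are read coverages at peak summits, recovered from the deposited peak values, and ratios are TAMo over vehicle after division by the most frequent background coverage (4.71 reads for vehicle and 5.80 reads for TAMo, a depth ratio of 1.23). The scale matters for small differences: with this scaling the median log2 ratio was 0.03 over the promoters of all genes and 0.28 over all 103845 shared regions. Promoters of T cell genes were open in both libraries. All 10 T cell markers had a promoter interval in both libraries, with vehicle coverages of 196 to 746 reads and TAMo coverages of 211 to 1256 reads, and among the 9 with overlapping strongest peaks the median log2 ratio was -0.02. Of 15 myeloid markers, 5 had overlapping promoter peaks, 4 had a promoter interval in the TAMo library alone (Itgam with 118 reads, Csf1r with 100 reads, Adgre1 with 31 reads and Fcgr3 with 27 reads) and 6, among them Lyz2, Ly6c2 and Ccr2, had none. Of the 5, 3 were more than 1.5-fold higher in the TAMo library (Cx3cr1 26 against 145 reads, Cd14 141 against 411 reads, Spi1 25 against 57 reads), against 8.77% of all genes. The Cd14 values are from different summits, at +291 bp in vehicle and -47 bp in TAMo. The others of the 5 were near equal, Cd68 with 510 and 661 reads (log2 ratio 0.07) and Cebpa with 237 and 316 reads (0.11). Among B cell markers, Cd79b (45 against 49 reads) and Ms4a1 (26 against 65 reads) had overlapping promoter peaks, Pax5 had an interval of 30 reads in the TAMo library alone, and Cd79a had none. The part of such cells in the values below was not tested.

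The DNA that p53 could recognise in the promoters is shown first. RefSeq promoter sequences (GRCm38.p6, the assembly also called mm10, from 250 bases before to 50 after a start site) were found for 25 of the 32 members and were searched on both strands for the full p53 response element, a pair of abutting copies of 1 motif. Ccng1 and Gtse1 held an element with at most 1 letter off, 2 of the members' 32 sequences, against 29 of 31396 promoter sequences of all genes (0.0924%). With at most 2 letters off, Zfp365 joined them (3 of 32 sequences, against 0.803% of all sequences). With up to 3 letters off but the C and G at the core of each copy kept, 7 members held an element in 8 of the 32 sequences, against 1.40% of all sequences. The element of Aen lies in 2 overlapping sequences. Capitals mark the element in these sequences, which are read on the strand of the gene, and were chosen because the Ccng1 and Zfp365 promoters pair an element with a higher coverage in the TAMo library. They lie at chr11:40755312-40755536 (minus strand) and chr10:67912663-67912912 (minus strand).
Ccng1: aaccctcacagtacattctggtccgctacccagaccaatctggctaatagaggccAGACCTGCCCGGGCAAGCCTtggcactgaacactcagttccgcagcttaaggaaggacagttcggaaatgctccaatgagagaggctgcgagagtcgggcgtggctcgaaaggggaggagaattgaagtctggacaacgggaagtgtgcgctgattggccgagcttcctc
Zfp365: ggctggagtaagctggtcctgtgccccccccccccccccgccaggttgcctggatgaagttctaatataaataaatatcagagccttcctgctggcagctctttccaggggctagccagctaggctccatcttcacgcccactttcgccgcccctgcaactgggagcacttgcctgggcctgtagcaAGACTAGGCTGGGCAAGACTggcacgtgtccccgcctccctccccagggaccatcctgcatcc

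Elements of the other 5 members are shown with 5 bases on either side, to set those with and without a difference in coverage beside each other. They lie at chr15:85859940-85859969 (plus strand, at the second start site of Gtse1), chr10:41887261-41887290 (plus strand, before the second start site of Sesn1), chr6:127109741-127109770 (minus strand), chr7:78895932-78895961 (plus strand) and chr11:69580279-69580308 (plus strand).
Gtse1: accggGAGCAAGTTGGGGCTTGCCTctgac
Sesn1: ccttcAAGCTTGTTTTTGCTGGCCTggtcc
Tigar: gcggcGGTCTAGCTCTGGCAAGACTccagg
Aen: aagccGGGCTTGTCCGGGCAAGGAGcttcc
Trp53: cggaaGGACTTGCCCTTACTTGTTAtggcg

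All 7 elements lay inside an interval in both libraries. In Zfp365 the element lay 9 bp from the nearest TAMo summit, with 98 vehicle reads and 435 TAMo reads, a log2 ratio of 1.85 (95% interval 1.53 to 2.18). In Gtse1 it lay 7 bp from a TAMo summit of 349 reads, against 174 reads in vehicle, a log2 ratio of 0.70 (0.44 to 0.97). In Ccng1 it lay 101 bp from the TAMo summit, with a ratio of 0.54 (0.41 to 0.68). These 3 elements are at most 2 letters off. Ccng1, however, stayed short of 1.5-fold and had a ratio of 0.27 with all shared regions centred at 0. Its TAMo summit also lay farther from the element than that of Aen (79 bp). Whether letter match and coverage go together was not tested. At the elements of the other 4, all 3 letters off, the log2 ratios at the nearest summits were 0.07 for Aen, 0.01 for Sesn1, -0.12 for Tigar and -0.09 for Trp53, where the element lay 19 bp from the TAMo summit. A letter match is a description and does not show that p53 binds there. Other motifs were counted in the same windows. The core CATG in a pair at the spacing found in the element was in no member and in 0.688% of all sequences, the NF-Y box CCAAT was in 17 of 32 member sequences (14 members) and in 37.3% of all sequences, and the AP-1 site TGANTCA was in 1 member sequence (Mdm4) and in 7.84% of all sequences. All were searched on both strands, and overlap with the p53 element was allowed. Member promoters were richer in GC (median 61.2% against 53%) and in CpG (21 against 7 per 300 bases) than all promoter sequences, which bears on such shares.

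Promoters of most p53 target genes were open to a like degree in both libraries. A handful, named below, had a higher coverage in the TAMo library, from 1.67-fold (Tnfrsf10b) to 3.64-fold (Phlda3). The strongest promoter peaks of both libraries overlapped for 30 of the 32 members. In 5 of these 30 (16.7%) the TAMo coverage exceeded the vehicle coverage 1.5-fold or more, namely Phlda3, Zfp365, Mdm2, Ei24 and Tnfrsf10b, against 8.77% of 12930 genes. A coverage lower by 1.5-fold or more was found in 0 of 30, against 3.26% of all genes. The median log2 ratio was 0.08 over the members (quartiles -0.06 and 0.37) and 0.03 over all genes (quartiles -0.13 and 0.22). The members were also strongly open to begin with, with a median vehicle coverage of 605 reads against 438 reads for all genes. The sign of the members' median depends on the scaling: with the median of all shared regions set to 0 it was -0.20, and Tnfrsf10b was no longer past 1.5-fold.

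**Figure D1:**
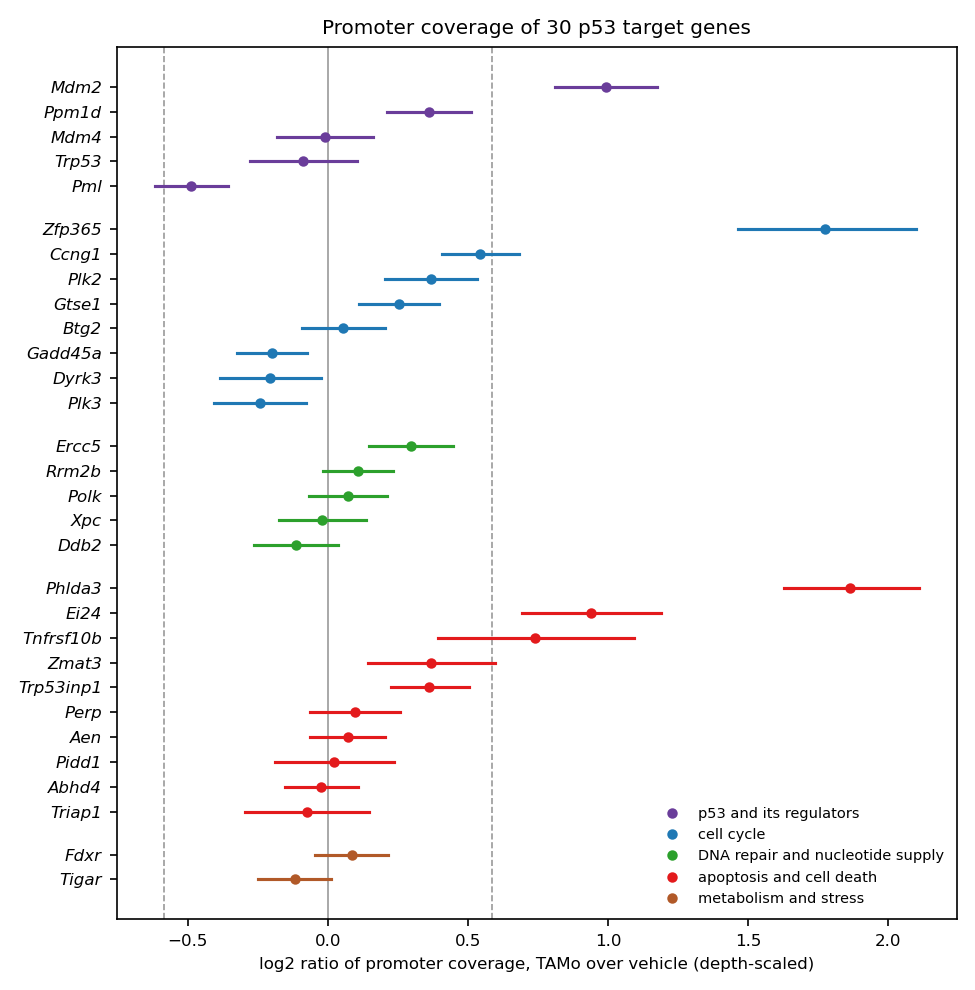
Log2 ratio of promoter coverage, TAMo over vehicle, for the 30 p53 target genes with overlapping strongest promoter peaks, grouped by role. Points are ratios, bars are 95% exact binomial intervals from the reads of 1 library per group, and dashed lines mark 1.5-fold. Phlda3 (1.86) and Zfp365 (1.78) stand to the right of all others, and Pml (-0.49) is the lowest.

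**Figure D2:**
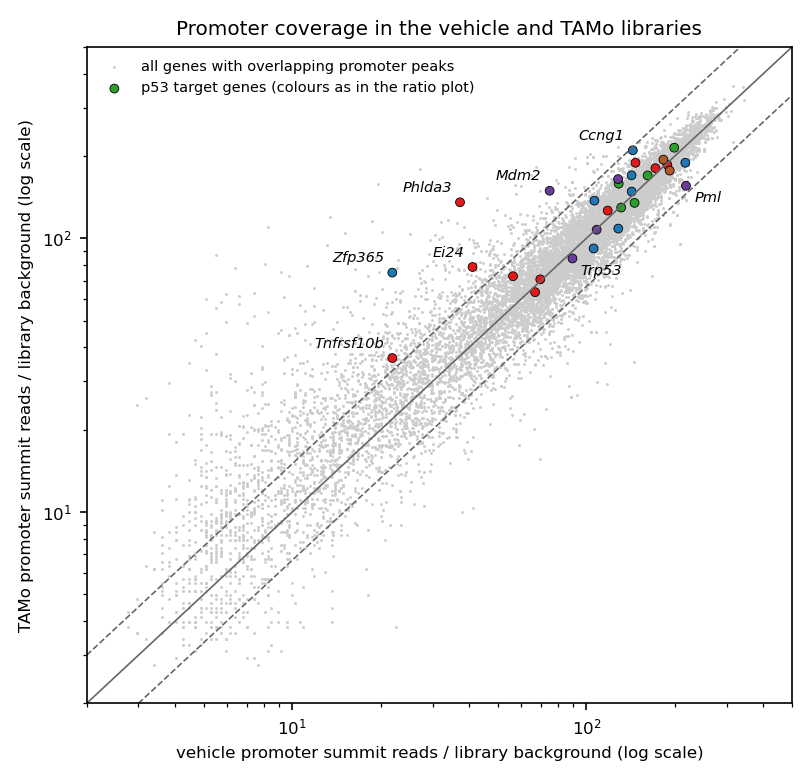
Promoter coverage divided by the library background, vehicle on the horizontal and TAMo on the vertical axis, both on log scales, for all genes with overlapping promoter peaks (grey) and the p53 target genes (coloured by role). The solid line marks equal coverage and the dashed lines 1.5-fold. Phlda3, Zfp365, Mdm2, Ei24 and Tnfrsf10b lie above the upper dashed line, and no member lies below the lower one.

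Among p53 and its regulators, Trp53 itself (chr11:69580359-69591873) did not differ beyond counting error at its promoter. The vehicle library had 422 reads there and the TAMo library 490 reads, a log2 ratio of -0.09 (95% interval -0.28 to 0.10), and a second summit at +810 bp had 269 and 299 reads. Mdm4 (chr1:132959484-133030561, minus strand) is the relative of Mdm2 that blocks transactivation by p53. Its values and distances refer to the start sites of its basic coding transcripts, the outermost at position 133025416, inside the annotated gene. It had 510 and 624 reads, a ratio of -0.01 (-0.18 to 0.16). Both intervals include 0 at this scaling, whereas with all shared regions centred at 0 both were lower (-0.36 and -0.29).

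Mdm2 (chr10:117688875-117710758, minus strand) is the ubiquitin ligase that degrades p53, and a promoter inside its first intron is known to carry its p53 elements. Its strongest promoter peak had 353 reads in vehicle and 866 reads in TAMo, a log2 ratio of 0.99 (0.81 to 1.17). The strongest summits of the libraries were, however, 717 bp apart. The vehicle summit lay 109 bp before the start site, and the TAMo summit lay 608 bp inside the gene, in an intron. Paired summit by summit (nearest to each other and at most 100 bp apart), coverage before the start site was 353 against 458 reads, a ratio of 0.07 (-0.13 to 0.28). At +62 bp it was 348 against 539 reads (0.33), at +341 bp 153 against 400 reads (1.08, 0.81 to 1.36) and at +608 bp 244 against 866 reads (1.53, 1.32 to 1.74). The higher coverage thus lay at the intronic summits and not at the summit before the start site, and with a window of 500 bp around the start site the ratio was 0.31. An additional summit at -321 bp, with 147 reads, was called in the TAMo library alone. The RefSeq window of Mdm2 ends short of the summits at +62 bp and beyond, so the letters under the higher summits were not searched.

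Ppm1d, the phosphatase that switches off the damage response and p53, had 603 and 955 reads (0.36, 0.21 to 0.51). Pml, the scaffold of the nuclear bodies that modify p53, was the member with the lowest ratio, with 1026 and 903 reads at a summit 707 bp before its start site (-0.49, -0.62 to -0.36). At its summit next to the start site the ratio was -0.22 (-0.43 to -0.01). Pml stayed short of the 1.5-fold limit, and passed it (-0.76) with the median of all shared regions set to 0.

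The 8 cell cycle genes had a median log2 ratio of 0.16, against 0.03 over all genes. Of the 8, 1 was at least 1.5-fold higher at its strongest peak, against 8.77% of all genes. This was Zfp365 (chr10:67886103-67912662, minus strand), a zinc finger protein that protects stalled replication forks and telomeres. Its strongest peak had 103 reads in vehicle and 435 reads in TAMo (1.78, 1.46 to 2.10), with summits 203 bp apart. All 4 of its paired summits were higher in the TAMo library. The summit at -45 bp, beside the printed element, had the largest ratio (1.85), followed by +168 bp (103 against 299 reads, 1.24), +724 bp (32 against 78 reads, 0.98) and +539 bp (54 against 109 reads, 0.71), and a summit of 151 reads at -639 bp was called in the TAMo library alone. Zfp365 was thus higher at each of its paired summits, unlike Mdm2, though the interval at +539 bp was wide (0.23 to 1.21).

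Ccng1, cyclin G1, which recruits a phosphatase to Mdm2, had 677 and 1217 reads at its strongest summits (0.54) and stayed just short of 1.5-fold. It also had summits of 258 reads at -583 bp and 195 reads at -380 bp in the TAMo library alone, both on the far side of the printed element. Its summits inside the gene were closer to equal, at 0.40 (+296 bp) and -0.19 (+635 bp). Plk2, a polo-like kinase of the stress response, had 501 and 797 reads (0.37, 0.20 to 0.53) at its strongest summit and 221 and 477 reads (0.81, 0.57 to 1.04) at -605 bp. Gtse1, a microtubule-binding protein of the later cell cycle that moves p53 out of the nucleus, had 670 and 986 reads (0.25, 0.11 to 0.40), or -0.02 with all shared regions centred at 0. Btg2, an antiproliferative partner of the deadenylase complex, had 671 and 860 reads (0.06). Gadd45a, a stress sensor of cell cycle and repair, had 1021 and 1096 reads (-0.20), Plk3 had 604 and 630 reads (-0.24) and the kinase gene Dyrk3 had 498 and 533 reads (-0.20). At these strongest summits the last 3 were lower by more than counting error but by less than 1.5-fold. The other summits of these 3 genes went both ways. Higher were those at -503 bp in Dyrk3 (0.54, 0.30 to 0.78) and at +443 bp (0.32, 0.05 to 0.59) and +673 bp (0.20, 0.02 to 0.38) in Gadd45a. Lower were those at +169 bp in Gadd45a (-0.27, -0.52 to -0.02) and +475 bp in Plk3 (-0.41, -0.77 to -0.05). At -426 bp in Plk3 the interval included 0 (0.23, -0.04 to 0.50), and a Dyrk3 summit at +284 bp was called in vehicle alone.

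Of the 10 genes of apoptosis and cell death, 3 were at least 1.5-fold higher, against 8.77% of all genes. The role's median log2 ratio was 0.23, against 0.03 over all genes. Whether roles differ was not tested. Phlda3 (chr1:135766119-135769136), whose lipid-binding domain holds the survival kinase Akt off the membrane, had the highest promoter ratio of all members. It had 175 reads in vehicle and 786 reads in TAMo, a 3.64-fold difference (log2 1.86, 1.63 to 2.11). Within the 1 kb window the paired difference was largest at the start site. The paired summit at +354 bp had 150 and 268 reads (0.53, 0.24 to 0.83), and the summit at -292 bp was called in TAMo alone (210 reads). Distal regions farther before the start site, given below, had higher ratios still.

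Ei24 (chr9:36779159-36797393), an endoplasmic reticulum protein of autophagy, had 193 and 456 reads (0.94, 0.69 to 1.19) near its start site, while at +316 bp the values were 117 and 144 reads (-0.00, -0.36 to 0.36). Tnfrsf10b (chr14:69767472-69784411), the death receptor for TRAIL, had 103 and 212 reads (0.74, 0.39 to 1.09), with a like ratio at +229 bp (0.72). Vehicle coverage was low in both Tnfrsf10b and Zfp365, at 103 reads, the lowest of the 30 members, and Phlda3 and Ei24 were next. The members past 1.5-fold were thus, apart from Mdm2, those with the lowest promoter coverage in the vehicle library. Vehicle coverage is also the divisor of the ratio, and the 8.77% of all genes was not matched for coverage. Whether the same holds for other genes of low vehicle coverage was not tested.

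Zmat3, an RNA-binding protein that acts in splicing, had 265 and 422 reads (0.37, 0.14 to 0.60) at its strongest summit, 451 bp before the start site. Next to the start site, at -62 bp, it had 203 and 281 reads (0.17, -0.10 to 0.43), but 66 and 229 reads at an intronic summit at +644 bp (1.49, 1.09 to 1.91). Aen, a nuclease of apoptotic DNA breakdown, likewise had 808 and 1047 reads (0.07) beside its start site and 68 and 194 reads at an intronic summit at +453 bp (1.21, 0.80 to 1.63). In both genes, as in Mdm2, the start site and the intronic summit behind it therefore had different ratios with intervals that do not overlap. Trp53inp1, a nuclear protein that promotes p53 activity and autophagy, had 691 and 1096 reads (0.36) and 146 and 307 reads at -530 bp (0.77), but 238 and 242 reads at +272 bp (-0.28, -0.54 to -0.01). Pidd1, the scaffold that activates caspase-2, had 328 and 411 reads at the strongest summit (0.02) and 200 and 376 reads at its second start site (0.61). The desmosomal apoptosis effector Perp had 556 and 733 reads (0.10). The lipase gene Abhd4 had 887 and 1077 reads (-0.02) and the mitochondrial survival factor Triap1 had 315 and 369 reads (-0.07), neither beyond counting error at these summits. In each, 1 other summit was higher. It had 184 and 310 reads at a start site farther inside Abhd4 (0.45, 0.18 to 0.72) and 122 and 195 reads at -588 bp of Triap1 (0.37, 0.04 to 0.71). Their remaining paired summits had intervals that include 0, with ratios of -0.26 and 0.07 in Abhd4 and 0.20, -0.17 and -0.06 in Triap1.

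**Figure D3:**
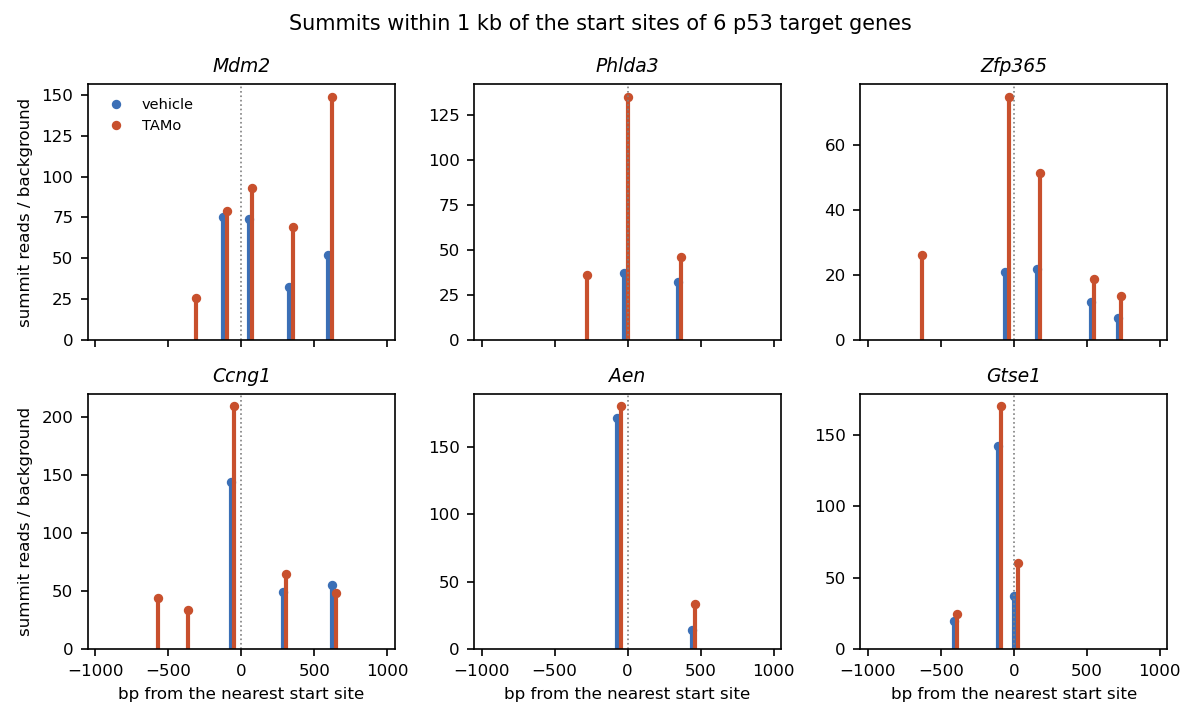
Summit coverage divided by the library background, against distance in bp from the nearest start site, for all summits within 1 kb of the start sites of Mdm2, Phlda3, Zfp365, Ccng1, Aen and Gtse1 (blue vehicle, red TAMo, drawn slightly apart sideways, with 1 library per group and so no error bars). In Mdm2 and Aen the libraries are close at the start site and apart behind it (+608 bp and +453 bp), in Phlda3 they are farthest apart at the start site, and in Zfp365 they are apart at every summit.

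Of the 5 DNA repair genes, 0 had a promoter at least 1.5-fold higher, against 8.77% of all genes. A count over so few genes does not set the role apart. The role median was 0.07, against 0.03 over all genes. Ercc5, an endonuclease of nucleotide excision repair, had the highest ratio of them, with 606 and 919 reads (0.30, 0.15 to 0.45). The ribonucleotide reductase subunit gene Rrm2b had 936 and 1244 reads (0.11), the translesion polymerase gene Polk 760 and 985 reads (0.07), and the damage recognition genes Xpc 618 and 752 reads (-0.02) and Ddb2 686 and 782 reads (-0.11). Those 4 did not differ beyond counting error at their strongest summits. Ddb2 also held the single paired summit of any member that was more than 1.5-fold lower in the TAMo library, at +170 bp (216 against 176 reads, -0.60, -0.89 to -0.30).

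Among the 4 metabolism and stress genes, the sestrin gene Sesn1 (chr10:41809935-41908424), whose product restrains mTORC1, had its strongest promoter peaks at different start sites, 77539 bp apart, and so has no ratio for the gene as a whole. At +267 bp of the first start site it had 654 and 1063 reads (0.40, 0.26 to 0.54). At a summit behind the second start site it had 547 and 1158 reads (0.78, 0.63 to 0.93), while 35 bp before that start site, 129 bp from the printed element, the values were 567 and 702 reads (0.01). The higher ratio was again behind a start site. Fdxr, a mitochondrial electron carrier reductase, had 860 and 1125 reads (0.09), and Tigar, which lowers glycolytic flux, had 903 and 1026 reads (-0.12). Gdf15 (chr8:70629393-70632456), a secreted stress cytokine, had no promoter interval in either library, which is a missing call and does not show that the promoter was closed.

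Summit by summit, 91 member summits within 1 kb of a start site could be paired between the libraries, 16 were called in TAMo alone and 3 in vehicle alone. Of the 91, 17 (18.7%) were higher by 1.5-fold or more under TAMo, against 10.8% of 35478 paired promoter summits of all genes. The Ddb2 summit was the 1 of 91 that was lower (1.10%), against 4.62% of all summits, and Ddb2 the 1 of 31 members with such a summit (3.23%), against 10.7% of all genes. The 17 belonged to 12 of 31 members with a paired summit (38.7%, against 22.2% of 13379 genes): Aen, Ei24, Gtse1, Mdm2, Phlda3, Pidd1, Plk2, Sesn1, Tnfrsf10b, Trp53inp1, Zfp365 and Zmat3. Whole promoter regions called in 1 library alone gave no such excess. They made up 9 of 56 member promoter regions of the TAMo library (16.1% against 17.1% of all) and 1 of 48 of the vehicle library (2.08% against 6.59%, in Abhd4). The promoter windows of Abhd4, Polk, Sesn1, Triap1 and Xpc also hold a start site of a neighbour (Dad1, Col4a3bp, Cep57l1, Gatc and Lsm3), so their coverage cannot be told apart from that gene's.

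Distal regions near p53 target genes were more often higher than lower in the TAMo library, as were distal regions in general. Assignment to a member is by distance alone and does not show that a region acts on that gene. There were 176 distal regions shared by both libraries, with a median of 80 vehicle reads and 171 TAMo reads. The median log2 ratio was 0.62 (quartiles 0.10 and 1.28), against 0.37 (quartiles -0.11 and 1.00) over all 74285 shared distal regions. At least 2-fold higher were 58 of 176 (33%), against 25.0% of all, and at least 2-fold lower were 2 of 176 (1.14%), against 3.43% of all. Of the 20 members with at least 3 shared distal regions, 19 had a median above 0 (95%, against 81.7% of 8683 such genes) and 16 a median above that of all regions (80%, against 51.9%). The 58 regions belonged to 16 of 29 members with a shared distal region (55.2%, against 57.4% of all such genes), most of them to Gadd45a (10 of 18), Perp (7 of 20), Sesn1 (7 of 19), Mdm2 (5 of 12) and Trp53inp1 (5 of 8).

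**Figure D4:**
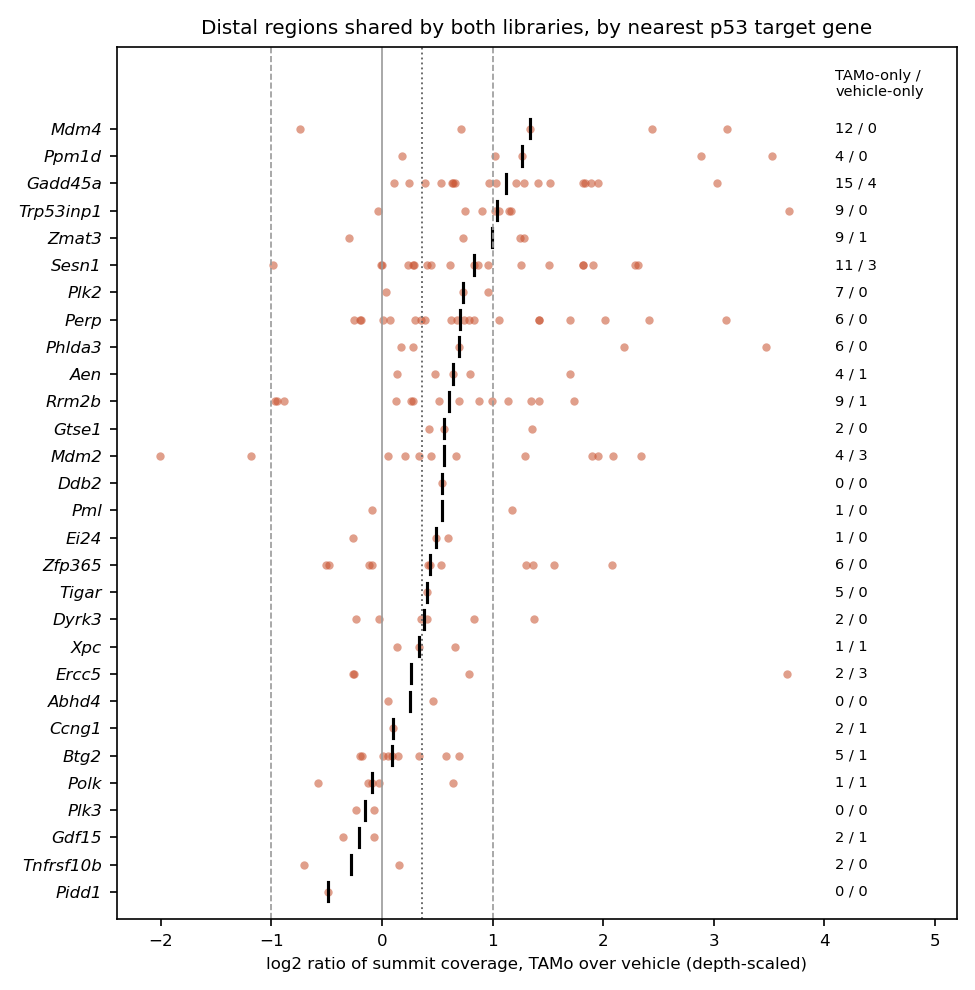
Log2 ratio of summit coverage, TAMo over vehicle, of each shared distal region (points), by nearest p53 target gene, in order of the gene's median (bar). Dashed lines mark 2-fold, the dotted line the median of all shared distal regions (0.37), and the right-hand figures count regions called in TAMo alone and in vehicle alone. Mdm4, Ppm1d and Gadd45a have the highest medians, and the 2 points beyond 2-fold lower both belong to Mdm2.

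By role, p53 and its regulators had the highest distal median, 1.10 over 24 regions, with 13 at least 2-fold higher and the 2 that were lower. The apoptosis genes had a median of 0.69 (17 of 50 higher), the cell cycle genes 0.54 (16 of 53) and the metabolism genes 0.53 (7 of 22). The repair genes, at 0.34 (5 of 27), were not above the level of all regions. Regions of 1 gene share a neighbourhood and are not independent.

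The 8 highest ratios lay near 7 members. In first place was an intergenic region 36177 bp before Trp53inp1 (chr4:11120072-11120630), with 31 reads in vehicle and 491 reads in TAMo (3.68, 3.16 to 4.26). A region over a coding exon of Ercc5 (chr1:44173099-44173596) had 28 and 438 reads (3.66, 3.11 to 4.27). Near Ppm1d, 2 intergenic regions, 36905 bp and 33457 bp before the start site (chr11:85273878-85274520 and chr11:85277620-85278622), had 49 and 697 reads (3.53, 3.11 to 3.98) and 57 and 520 reads (2.89, 2.49 to 3.31). These regions were chosen for their ratios, and single regions need not stand for a gene: the distal median of Ercc5 over its 4 shared regions was 0.26, beside a promoter ratio of 0.30. At Phlda3, a region 5670 bp before its start site (chr1:135760284-135760586) had 30 and 411 reads (3.47, 2.94 to 4.06), and another 1819 bp before it (chr1:135764143-135764425) had 55 and 309 reads (2.19, 1.77 to 2.63).

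An intron of Mdm4, 5004 bp from its nearest basic start site (chr1:133020146-133020563), had 83 and 888 reads (3.12, 2.79 to 3.46), the highest TAMo coverage of these 8 regions, while the Mdm4 promoter had a ratio of -0.01. About 700 bp from it, the neighbouring interval at 5695 bp (chr1:133019376-133019883) was called in the TAMo library alone, with 344 reads. Regions 49591 bp behind the start site of Perp (chr10:18894449-18894797, 35 and 373 reads, 3.11) and 34374 bp before that of Gadd45a (chr6:67071432-67072274, 36 and 363 reads, 3.03) completed the 8. Gadd45a had 10 of 18 shared distal regions at least 2-fold higher and none that was 2-fold lower, with a distal median of 1.12.

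Mdm2 had the widest spread of distal ratios. A region at the end of the gene (chr10:117687587-117688891), which has its summit 22985 bp behind the start site, had 89 and 558 reads (2.35, 2.02 to 2.69), and regions in a UTR (chr10:117689083-117689465, 46 and 242 reads, 2.09) and an intron (chr10:117697534-117697838, 42 and 201 reads, 1.96) of Mdm2 were also higher. Farther on, in introns of the neighbouring gene Cpm, lay the only 2 member regions more than 2-fold lower in the TAMo library. They had 196 and 60 reads (chr10:117670569-117671241, -2.01, -2.45 to -1.59) and 188 and 102 reads (chr10:117678446-117678762, -1.18, -1.55 to -0.83). Cpm encodes a membrane carboxypeptidase, and its start site lies farther from these regions than that of Mdm2.

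The next lowest regions stayed within 2-fold. An intronic region of Sesn1 (chr10:41867679-41868376) had 138 and 86 reads (-0.98, -1.39 to -0.59), and a cluster of 3 regions about 61 kb behind the start site of Rrm2b (chr15:37898691-37898884, chr15:37898944-37899179 and chr15:37899681-37900283) had 30 and 20, 47 and 30, and 95 and 60 reads (-0.89, -0.95 and -0.97). A region 8535 bp before the outermost basic start site of Mdm4 (chr1:133033151-133034465) had 383 and 282 reads (-0.74, -0.97 to -0.52), which sets it apart from the intronic Mdm4 region above. An intronic region of Tnfrsf10b (chr14:69774645-69775197) had 45 and 34 reads (-0.71, -1.39 to -0.03).

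Distal regions called in 1 library alone were near the background share at p53 target genes. The TAMo library had 132 such regions among 308 (42.9% against 42.4% of all distal TAMo regions), and the vehicle library 22 among 198 (11.1% against 14.5%). TAMo-only regions outnumbered vehicle-only ones at 24 of the 31 members with a distal region, 77.4% of them against 74.0% of all 15895 genes with a distal region. Ercc5 was the single member in the other direction (2 against 3), 3.23% against 8.31% of all. Triap1 had no distal region. Mostly they were weak, with a median of 53 reads for TAMo-only and 33.5 reads for vehicle-only regions. Of the TAMo-only regions 74 were intergenic, 50 intronic, 4 in coding exons and 4 in UTRs, and the shared regions divided in like manner (95, 74, 5 and 2).

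The strongest TAMo-only regions, ranked by the authors' own −log10 q, lay at Zmat3, Gadd45a, Rrm2b, Mdm4 and Perp. Zmat3 had one behind the gene (chr3:32332362-32332915, 322 reads, −log10 q 224) and one in its intron, 1249 bp from the start site (chr3:32364188-32364511, 391 reads, −log10 q 196). The latter is next to the intronic summit that was higher at the Zmat3 promoter. Gadd45a had a TAMo-only region 80834 bp before its start site (chr6:67118051-67118510, 224 reads, −log10 q 217). Rrm2b had one in its own intron (chr15:37929310-37929819, 147 reads) and one between genes (chr15:37885122-37885495, 124 reads). For Perp it was an intergenic region (chr10:18874805-18875144, 135 reads), and for Mdm4 the intronic one given above.

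Vehicle-only regions were weaker by the same measure. The strongest lay in an intron of Fdxr, 1415 bp from its start site (chr11:115275511-115275747, 208 reads, −log10 q 43.9). It was followed by regions near Mdm2 (chr10:117720697-117720900, 97 reads, −log10 q 26.1) and Gadd45a (chr6:67106217-67106383, 93 reads, −log10 q 23.2). The other 5 of the 8 strongest lay near Gdf15 (47 reads), Gadd45a again (36 reads), Ercc5 (40 reads), Rrm2b (31 reads) and in a coding exon of Btg2 (111 reads). Coverage of the other library at a region called once is not known, so these calls are not evidence of a closed site.

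Other genes of the p53 pathway, from lists kept apart from the 32, are the upstream regulators and further targets. Of 15 upstream kinases and cofactors, 13 had overlapping promoter peaks, with a median log2 ratio of 0.01. In this list 0 of 13 were past 1.5-fold in either direction, against 8.77% higher and 3.26% lower over all genes. Among them were the damage kinases Atm (948 and 1106 reads, -0.08) and Chek1 (360 and 470 reads, 0.08). For Chek1 the strongest summits lay at different places, +144 bp in vehicle and -917 bp in TAMo, so its ratio does not compare 1 site. Trp73 had a promoter interval in the vehicle library alone (62 reads) and Trp63 had none. Of 15 other targets, 14 had overlapping peaks, and the median was 0.18. At least 1.5-fold higher were 2 of the 14, against 8.77% of all genes, and 0 were lower, against 3.26%. The 2 were the cell cycle inhibitor gene Cdkn1a (377 and 926 reads, 0.99, 0.82 to 1.17) and the pore-forming apoptosis gene Bax (198 and 445 reads, 0.87, 0.62 to 1.11). For Bax the values are from different summits, at +15 bp in vehicle and +265 bp in TAMo. Pmaip1 (0.58) and Fas (0.53) stayed just short of that limit. Below 0 were Sfn (-0.27), Trp53i13 (-0.22), Tap1 (-0.16), Bid (-0.15) and Apaf1 (-0.07). The strongest peaks of Bbc3, which encodes the apoptosis inducer Puma, had 401 and 1407 reads but did not overlap, so it has no ratio here. These comparisons rest on the same 2 libraries as those of the members.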

How the data were processed

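ATAC-seq peak lists were deposited for 2 libraries (1 vehicle, 1 TAMo). Per the submitters' processing notes, Trimmomatic 0.36, Bowtie2, MACS2 and the build mm10 were used; settings, read shifting and duplicate removal were not given in the sources used here. Each list was called on 1 library, and per the deposited values holds a score, a fold enrichment (a ratio over local background), a −log10 p and a −log10 q per summit. The lists held 163215 (vehicle) and 225656 (TAMo) summits on chromosomes 1 to 19, in intervals of at least 150 bp, with a lowest −log10 q of 1.32 and 1.34.

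Whole-read coverage was solved from the authors' fold and −log10 p (Poisson tail, tolerance 1% of the step between neighbouring coverages), leaving out 30 and 48 summits, none of them the strongest of a member region. The solver was run on data simulated with the same formula that it inverts, which cannot show that the deposited values follow that formula. Ratios have 95% exact binomial (Clopper-Pearson) intervals, and reads are not independent molecules. With 1 library per group there was no test, and counts past 1.5-fold (promoters) or 2-fold (distal regions) are given beside those over all genes or regions. Start sites came from GENCODE M21 (basic, same assembly). Promoter coverage is that of the strongest summit within 1 kb of a start site. RefSeq promoter sequences matched 25 of 32 members by symbol, and distal sequence was not used here. Python 3.11.15, pandas 2.3.3, NumPy 2.4.6 and SciPy 1.17.1 were used.

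Members and lists were chosen with earlier results of these data known. Named in full were Trp53, Mdm2, Mdm4, members past 1.5-fold or without overlapping promoter peaks, the 8 highest and 8 lowest shared distal regions and the 8 strongest regions of each library alone; summits and regions beyond these were chosen after their values were seen. Some items under these rules are not reported here. Alternatives covered scaling, promoter window, fold, overlap, distance and list length. The looser p53 elements and the summit-by-summit pairing were added after seeing the data.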

Additional observations from a re-analysis of the deposited data

How the results depend on the processing

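No paired analysis was possible because each group has 1 library and the labels carry no shared replicate numbers. Setting the median of all shared regions to 0 (a shift of 0.28 on the log2 scale) turned the members' median promoter ratio from 0.08 to -0.20, left 4 promoters higher and made 1 lower (Pml, -0.76), against 4.89% and 10.4% of all genes, and gave 7 distal regions lower (3.98% against 6.55% of all) and 25.6% higher (18% of all), with a distal median of 0.34 (all regions 0.09). Promoters higher numbered 3 of 28 where both summits had to lie within 100 bp (Mdm2 and Zfp365 drop out by construction). At a 2-fold limit they numbered 2 of 30. The share of all genes was not computed under either rule, so these counts have no background beside them. Over any paired summit, 12 members were higher (38.7% against 22.2% of genes) and 1 lower (3.23% against 10.7%). At a 1.5-fold limit, 90 distal regions were higher (51.1% against 39.7% of all) and 8 lower (4.55% against 9.09%). Cutting the TAMo list to as many intervals as vehicle had left 66 TAMo-only regions (29.3% against 28.3% of all) and made 39 vehicle-only regions (19.7% against 25.5%), by construction. Vehicle-only regions numbered 10 with a −log10 q of at least 10 (5.38% against 6.19% of all) and 54 under the stricter overlap of intervals (25.1% against 26.9%). Members with a p53 element numbered 7 at 3 letters off, against 2. The other 29 alternative values of counts and medians kept their direction and stayed near the value reported. Depth limits weak distal values: the lowest vehicle coverage of a shared member region was 18 reads.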
